A study of Mus musculus with 4 samples.

Results

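Cycling cells were examined in dissociated hind limb muscle (tibialis anterior and gastrocnemius) of 2-month-old male mice. A cell was selected on its own transcripts: it was kept when at least 4 of 8 proliferation genes (Mki67, Top2a, Birc5, Ccna2, Cdk1, Ube2c, Cenpf and Nusap1, called the rule genes here) had 1 or more unique molecular identifiers (UMIs). Of 18153 cells with more than 200 detected genes and less than 10% mitochondrial UMIs, 283 met the rule. All mice carried the S100GFP transgene, a GFP reporter under the promoter of S100B, a gene of Schwann cells, the glia of peripheral nerve. The WT mice had intact Sod1, and the Sod1KO mice carried the transgene on a Sod1-/- background, which removes the copper and zinc superoxide dismutase from every cell type. Muscles of 4 mice were pooled per genotype and live (propidium iodide negative) cells were sorted into GFP+ and GFP- fractions, giving 4 droplet 3′ libraries, 1 per group. No group therefore had a replicate library. No test was possible between groups, and every interval below is a 95% interval for counting error alone.

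Cells that divide pass through an ordered program. Cyclin and cyclin-dependent kinase (CDK) pairs release E2F factors from the pocket proteins, E2F targets copy the DNA in S phase, and a later wave of genes condenses, aligns and separates the chromosomes in G2 and mitosis. In uninjured adult muscle most resident cells (Schwann cells, endothelial cells of capillaries, fibroblasts, tendon cells and satellite cells, the muscle stem cells) rest outside this program. CDK inhibitors of the Cip/Kip and INK4 families hold cells out of it.

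The late genes of this program share a promoter layout that is visible in the rule genes themselves. Many carry a cell cycle homology region (CHR, searched here as TTTGAA or TTCGAA) near the start, with CCAAT boxes (CCAAT) upstream. The sequences below are the 150 bases before the start of 4 rule genes, from RefSeq on GRCm38.p6, read 5′ to 3′ on the strand of the gene, with capitals marking CHR and CCAAT matches on either strand. They are Cdk1 at chr10:69352913-69353062 (minus strand), Ube2c at chr2:164769779-164769928 (plus strand), Top2a at chr11:99024190-99024339 (minus strand) and Mki67 at chr7:135716380-135716529 (minus strand). These 4 are shown because both motifs lie in the printed stretch.
Cdk1: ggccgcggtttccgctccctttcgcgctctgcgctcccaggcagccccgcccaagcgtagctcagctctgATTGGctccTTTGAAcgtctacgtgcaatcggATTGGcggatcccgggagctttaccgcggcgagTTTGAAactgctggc
Ube2c: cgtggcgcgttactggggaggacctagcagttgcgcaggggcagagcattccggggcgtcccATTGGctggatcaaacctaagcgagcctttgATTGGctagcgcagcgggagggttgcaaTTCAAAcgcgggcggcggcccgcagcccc
Top2a: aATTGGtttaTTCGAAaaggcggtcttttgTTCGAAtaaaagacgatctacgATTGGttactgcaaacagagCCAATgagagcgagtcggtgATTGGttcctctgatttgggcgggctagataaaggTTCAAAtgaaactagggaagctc
Mki67: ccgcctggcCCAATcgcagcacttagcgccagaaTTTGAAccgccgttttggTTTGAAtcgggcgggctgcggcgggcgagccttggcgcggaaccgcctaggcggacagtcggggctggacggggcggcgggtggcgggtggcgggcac

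The printed Top2a stretch held 3 CHR and 4 CCAAT matches, Cdk1 2 and 2, Ube2c 1 and 2, and Mki67 2 and 1. In the full window of 300 bases (250 before to 50 after the start), 5 of the 7 rule genes with a RefSeq promoter had a CHR, and the same 5 had a CCAAT box. Birc5 and Nusap1 had neither, but each had a match to E2F letters (searched as TTTGGCG, with its variants written TTTCGCG, or with cytosines as TTTCCCG, or finally as TTTGCCG), and no promoter was matched for Ccna2. Across all 27025 promoters of this length, 19.4% held a CHR, 37.9% a CCAAT box, 7.70% both and 6.85% an E2F match. Of 67 matched genes on the mitosis lists described below, which hold no rule gene, 70.1% held a CHR and 53.7% held both motifs. Among 32 matched DNA replication genes, 18.8% held a CHR and 59.4% an E2F match. These are matches of letters and not binding sites. The 3 motifs were searched separately on both strands, so matches can share bases.

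The libraries differed in size and makeup. They held 2052 to 7267 barcodes and 21959700 to 105954000 UMIs, with WT GFP- the smallest, and kept cells had medians of 8275 UMIs in WT GFP- and 13122 to 15273 in the others. Schwann-like cells, named from a marker list that included Sox10, Erbb3 and Cdh19, numbered 1533 of the 4767 kept WT GFP+ cells, and 1637 of 6291 from the Sod1KO mice, so most GFP+ cells had other leading markers. Barcodes found in more than 1 library numbered 42, and none of them was a cycling cell. Sod1 transcripts, which check the labels, were present at 91.2 UMIs per 1000000 (CPM) in WT GFP+ and 97.2 in Sod1KO GFP+, and at 124 in WT GFP- and 112 in Sod1KO GFP-. They were thus present in the libraries labelled Sod1KO at close to the WT level. No source used here says which stretch of Sod1 is deleted, and a 3′ tag outside that stretch checks nothing, so the labels could not be checked and every Sod1KO value below belongs to a library so labelled.

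Few cells lay near the rule. Of the 18153 cells, 15854 had no rule gene and 1754 had 1. Just outside the rule, 46 cells had exactly 3 rule genes, with a median of 4 rule-gene UMIs and 169 CPM. Just inside, 32 cells had exactly 4, with a median of 8 UMIs and 372 CPM. By contrast 175 of the 283 cycling cells had all 8 genes, with a median of 124 UMIs and 4452 CPM. Values for the 4 libraries are given from here in the order WT GFP+, Sod1KO GFP+, WT GFP-, Sod1KO GFP- where no library is named. All 8 genes were found in 17 of 27, 71 of 129, 7 of 8 and 80 of 119 cycling cells. The histogram of rule genes per cell has 1 mode at the low end and another at 8 in each library.

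**Figure D1:**
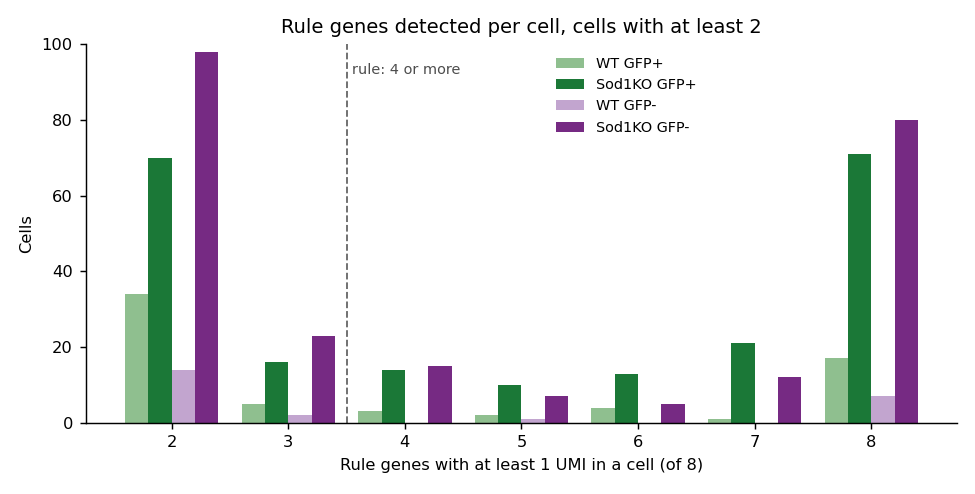
Number of cells (vertical axis) by number of the 8 rule genes with at least 1 UMI (horizontal axis, from 2), in the 4 libraries; the dashed line marks the rule of 4 or more. Cells pile up at 8 genes (17, 71, 7 and 80 cells), and few lie near the rule.

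As a check on genes the rule did not use, 8 other mitosis genes (Plk1, Aurkb, Bub1, Cdca8, Tpx2, Prc1, Kif11 and Cdc20) were counted in the same cells. At least 4 of them were found in 24 of 27, 112 of 129, 7 of 8 and 96 of 119 cycling cells. The same held for 0, 1, 1 and 3 of the remaining cells. Cycling cells were also large in RNA content, with median UMIs of 38254, 24412, 47013 and 32082 against 13028, 13458, 8174 and 15083 in other cells. More UMIs make it easier to detect 4 genes. A score for doublets (a cell barcode with the RNA of more than 1 cell) marked 12 of 27, 25 of 129, 0 of 8 and 11 of 119 cycling cells, and 4.18%, 5.53%, 1.63% and 5.20% of other cells.

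Top2a, the topoisomerase that untangles replicated DNA, was at 560, 645, 920 and 579 CPM in cycling cells. Mki67, which coats mitotic chromosomes, was at 563, 483, 951 and 539 CPM, and Ube2c, the ubiquitin-conjugating enzyme of the anaphase-promoting complex, at 411, 509, 882 and 533. The WT GFP- values were the highest for all 3 genes and rest on 8 cells. Cenpf, a kinetochore protein, was at 358, 445, 828 and 473 CPM, and Birc5 (survivin), of the chromosomal passenger complex, at 254, 364, 511 and 339. Cdk1, the mitotic kinase, was at 226, 268, 473 and 310 CPM, Nusap1, a spindle microtubule binder, at 192, 217, 311 and 194, and Ccna2, the S and G2 cyclin, at 105, 124, 304 and 175. Ccna2 was the lowest of the 8 in each library. In cells outside the rule Nusap1 was the most widespread rule gene, with a UMI in 3.89% of other Sod1KO GFP+ and 6.48% of other Sod1KO GFP- cells, against 0.146% and 0.603% for Ccna2. These levels chose the cells and are a description only. They are per UMI in 3′ libraries, where gene length does not scale the count.

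The share of cycling cells was higher in the libraries labelled Sod1KO in both sorts. In GFP+ cells it was 0.566% (27 of 4767, Clopper-Pearson interval 0.374 to 0.823) in WT and 2.05% (129 of 6291, 1.71 to 2.43) in Sod1KO. The difference was 1.48 percentage points (Newcombe interval 1.07 to 1.90), a ratio of 3.62 (2.38 to 5.70). In GFP- cells it was 0.480% (8 of 1665, 0.208 to 0.945) in WT and 2.19% (119 of 5430, 1.82 to 2.62) in Sod1KO, a difference of 1.71 points (1.13 to 2.20) and a ratio of 4.56 (2.24 to 10.81). The intervals of the 2 genotypes did not overlap in either sort. With 1 library per group, a difference between genotypes and a difference between 2 pools, digestions or sorts cannot be told apart.

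The GFP+ and GFP- shares were close within each genotype label. The GFP+ minus GFP- difference was 0.0859 points (-0.411 to 0.435) in WT and -0.141 points (-0.674 to 0.381) in Sod1KO. The ratio of the shares was 1.18 (0.521 to 3.00) in WT and 0.936 (0.724 to 1.21) in Sod1KO, so a moderate difference either way lies within the intervals.

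Shares were also computed at equal depth and with a common lineage makeup. After thinning each cell to 2000 UMIs the shares were 0.293% and 1.16% in GFP+ WT and Sod1KO, and 0.343% and 1.18% in GFP- WT and Sod1KO. Thinned to 5000 UMIs they were 0.481% and 1.71% in GFP+, and 0.712% and 1.72% in GFP-. The GFP- ratio was the more sensitive, with a log2 ratio of 2.19 unthinned, 1.78 (0.48 to 3.46) at 2000 UMIs and 1.27 (0.23 to 2.53) at 5000, where 541 of the 1665 WT GFP- cells were too shallow to enter. With the lineage makeup of the WT library of the same sort, the Sod1KO shares came to 2.16% in GFP+ and 2.59% in GFP-.

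The level of the rule genes summed over all kept cells is described without support for the shares, since these genes chose the cells. It was 50.8 CPM in WT GFP+ and 117 in Sod1KO GFP+ (log2 ratio 1.20, Poisson-based interval 1.15 to 1.25), and 88.0 in WT GFP- and 154 in Sod1KO GFP- (0.81, 0.74 to 0.88). The log2 ratio was above 0 for all 8 genes in each sort. In GFP+ cells the log2 ratios ran from 0.80 for Mki67 to 1.56 for Birc5, and in GFP- cells from 0.68 for Ccna2 to 0.98 for Birc5. Birc5, which holds Aurora B at the centromere, was thus highest in both sorts (4.72 and 13.9 CPM in GFP+, 8.40 and 16.6 in GFP-). The cycling cells held 86.1% to 91.3% of all rule-gene UMIs in the 4 libraries, although they gave only 1.51% to 4.43% of all UMIs.

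Cycling cells came from different lineages in the 2 sorts, and the GFP gate bears on this. Each cell was given the lineage whose marker list scored highest, and a cell was left mixed when another list came within 80% of that score. In Sod1KO GFP+, 52 of the 129 cycling cells (40.3%) were Schwann-like, 23 fibroblast-like, 11 macrophage-like, 10 endothelial-like, 9 tenocyte-like, 4 mural-like, 3 dendritic-like, 3 perineurial-like, 2 satellite-like and 1 adipocyte-like, and 11 were mixed. In Sod1KO GFP-, 87 of 119 (73.1%) were endothelial-like, 14 fibroblast-like, 4 mural-like, 1 Schwann-like and 1 erythroid-like, and 12 were mixed. The 27 WT GFP+ cycling cells held 7 Schwann-like, 7 tenocyte-like, 5 macrophage-like, 3 dendritic-like, 2 endothelial-like, 1 fibroblast-like, 1 mural-like and 1 mixed cell. Of the 8 in WT GFP-, 7 were endothelial-like and 1 was mixed. The commonest pair among mixed cells was endothelial with mural markers, the pair in 5 of the 12 mixed Sod1KO GFP- cells with endothelial markers leading. Over all libraries, 106 of the 283 cells were endothelial-like, 60 Schwann-like, 38 fibroblast-like, 16 tenocyte-like and 16 macrophage-like. The sorts also differed in the lineages of all kept cells. Endothelial-like cells were 49.7% of kept Sod1KO GFP- cells (73.1% of cycling cells) and 62.9% of kept WT GFP- cells (87.5%). In Sod1KO GFP+, endothelial-like cells were 7.96% of kept cells (7.75% of cycling cells). Schwann-like cells there were 1637 of 6291 kept cells (40.3% of cycling cells). Fibroblast-like cells were 19.8% (17.8% of cycling cells) and tenocyte-like cells 22.6% (6.98%).

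The names rested on many markers per cell. Cycling endothelial-like cells of Sod1KO GFP- had a median of 12 of 12 endothelial markers and Schwann-like cells of Sod1KO GFP+ a median of 9 of 12. Their lowest cells had 2. Fibroblast-like cells of Sod1KO GFP+ had 9 to 12 of 12, and tenocyte-like cells 7 or 8 of 8. The rarer mural-like and dendritic-like cells had medians of 4 to 7 detected markers, and no cluster was built.

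Within lineages, the share of cycling Schwann-like cells was higher in the library labelled Sod1KO. Among GFP+ cells it was 0.457% (7 of 1533, 0.184 to 0.939) for WT and 3.18% (52 of 1637) for Sod1KO, a ratio of 6.96 (3.15 to 18.15) and a difference of 2.72 points (1.83 to 3.71). Thinned to 2000 UMIs the counts were 3 of 1492 and 31 of 1596. Of the 7 WT cells, 5 were scored as doublets, against 3 of the 52 Sod1KO cells. Without the cells so scored the log2 ratio was 4.51 in place of 2.80.

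Endothelial-like cells showed the same direction in both sorts. In GFP- cells, 0.669% (7 of 1047) cycled in WT and 3.22% (87 of 2700) in Sod1KO, a ratio of 4.82 (2.24 to 12.34). In GFP+ cells, 0.385% (2 of 519) cycled in WT and 2.00% (10 of 501) in Sod1KO, a ratio of 5.18 with a wide interval (1.10 to 48.62), and 6 of those 10 cells were scored as doublets. Thinned to 5000 UMIs, the GFP+ counts were 2 of 383 for WT and 7 of 381 for Sod1KO, a ratio of 3.52 (0.670 to 34.71) whose interval includes no difference. Thinned to 2000 UMIs they were 0 of 453, which allows up to 0.662% when the limit is set at 3 counts, and 6 of 453. Thinning to 5000 UMIs lowered the GFP- log2 ratio from 2.27 to 1.25 (0.11 to 2.63).

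Fibroblast-like GFP+ cells cycled at 0.152% (1 of 658) for WT and 1.84% (23 of 1247) for Sod1KO, a difference of 1.69 points (0.760 to 2.61). The single WT cell was scored as a doublet. Without such cells the Sod1KO share was higher by a log2 ratio of 1.76 when the WT count of 0 was set to 3. At equal depth the GFP+ difference was within counting error. Thinned to 2000 UMIs, 1 of 505 cells cycled for WT and 10 of 1084 for Sod1KO, a difference of 0.724 points (-0.283 to 1.51), and thinned to 5000 UMIs, 1 of 402 and 11 of 861, a difference of 1.03 points (-0.248 to 2.05). In GFP- cells, 14 of 936 cycled in Sod1KO and 0 of 84 in WT. A count of 0 among 84 allows a share of up to 3.57% when the limit is set at 3 counts, so a difference there was not detectable at this depth.

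Tenocyte-like and macrophage-like cells had no such difference beyond counting error. Tenocyte-like cells, which express the tendon genes Tnmd and Scx, cycled among GFP+ cells at 1.08% (7 of 646) for WT and 0.633% (9 of 1422) for Sod1KO, a difference of -0.451 points (-1.63 to 0.344). Doublets were scored in 4 of those 7 and 6 of those 9 cells. Among GFP+ cells, macrophage-like cells had a high share in each genotype, 4.59% (5 of 109) in WT and 6.40% (11 of 172) in Sod1KO. The difference was 1.81 points (-4.54 to 7.18). Both intervals include no difference and are wide. No macrophage-like GFP- cell cycled, of 67 in Sod1KO (up to 4.48% by a limit of 3 counts) and 17 in WT. Among macrophage-like cells of Sod1KO the GFP+ minus GFP- difference was 6.40 points (0.298 to 11.1). The interval of the ratio has a lower bound of 0.978 and so includes no difference. No tenocyte-like GFP- cell cycled, of 423 in Sod1KO (up to 0.709% by the same limit) and 18 in WT. Dendritic-like cells cycled in 3 of 20 WT and 3 of 30 Sod1KO GFP+ cells.

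**Figure D2:**
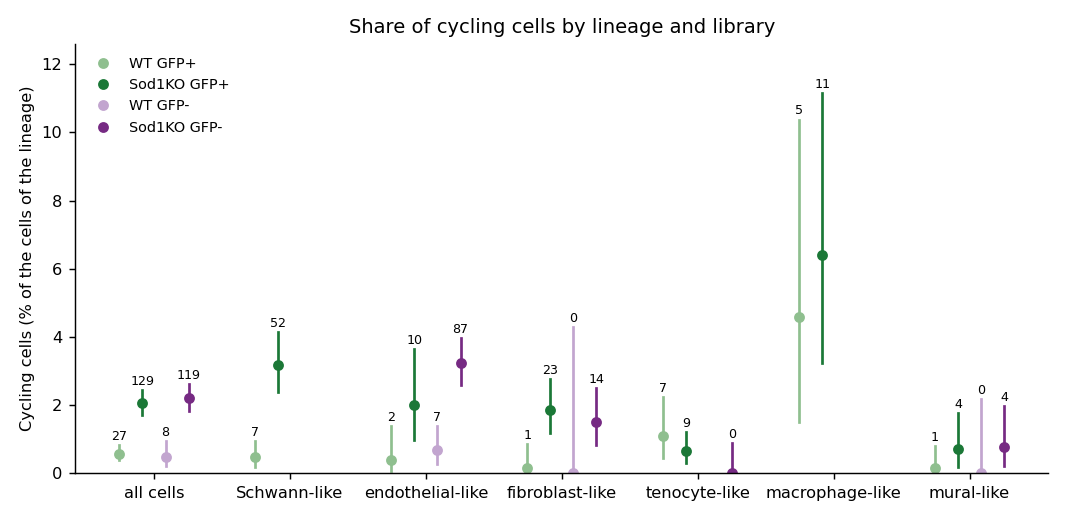
Percent of cells that cycled (vertical axis) in all cells and in each lineage (horizontal axis) of the 4 libraries; points are shares, vertical lines 95% Clopper-Pearson intervals for counting error only, numbers are counts of cycling cells, and a library with fewer than 80 cells of a lineage is not drawn. Sod1KO points lie above WT points in Schwann-like, endothelial-like and fibroblast-like cells, and below in tenocyte-like cells (9 against 7 cells).

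Satellite-like cells were rare in these sorts and included 2 cycling cells, both in Sod1KO GFP+ (2 of 58, against 0 of 37 in WT GFP+, which allows up to 8.11% by the same limit of 3 counts). One had 4 UMIs of Pax7, the satellite cell transcription factor, 4 of Myf5 and 8 of Myod1, the commitment factors, 31 of Mki67 and all 8 rule genes. The other had 7 of Pax7, 1 of Myf5, 1 of Myod1, 6 of Mki67 and 5 rule genes. Neither had a UMI of Myog, the differentiation factor, or of Cdkn1c. Pax7, Myf5 and Myod1 are on the list that named these cells, so their presence follows from the naming. The absence of Myog UMIs in 2 cells does not settle whether differentiation had begun.

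Gene levels were next compared between cycling cells and other cells of the same lineage and library, for the 3 lineages with at least 20 cycling cells in 1 library. UMIs were summed over cells, and a gene was called higher or lower at a 2-fold difference of CPM (a log2 ratio of 1 in size). The rule created this contrast, so cell cycle genes had to differ, and the counts describe the program and support nothing. In Schwann-like cells of Sod1KO GFP+, 9.46% of 13492 genes were called higher and 10.7% lower. In endothelial-like cells of Sod1KO GFP-, 6.91% of 15341 were called higher and 10.6% lower, and in fibroblast-like cells of Sod1KO GFP+, 11.6% of 12849 were higher and 11.8% lower. The median over all genes lay between -0.07 and 0.03 on the log2 scale. Under a median-of-ratios scaling the fibroblast-like values fell by 0.21, and the called genes went from 1494 higher and 1513 lower to 1128 higher and 2133 lower.

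Replication genes were higher as a group, by less than mitosis genes. Of 40 genes that license origins or build the fork, 38, 33 and 39 were called higher in Schwann-like, endothelial-like and fibroblast-like cells, with medians of 2.38, 1.68 and 3.47. Clspn, the fork protein that relays checkpoint signals, had the highest ratio in all 3 (5.09, 4.48 and 6.30). Mcm2, a subunit of the replicative helicase, was at 28.0 against 3.90 CPM in Schwann-like cells (2.84, 2.21 to 3.46), and Pcna, the sliding clamp, at 284 against 55.4 CPM (2.36). Gins4 had the lowest ratio of the list in Schwann-like cells (0.62, 0.13 to 1.07). Pola2, a primase-polymerase subunit, had the lowest in endothelial-like cells, at -0.25 (-0.49 to -0.02).

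Nucleotide synthesis divided into enzymes tied to S phase and others. Called higher were 9, 10 and 12 of 16 genes in the 3 lineages. Rrm2, the ribonucleotide reductase subunit made in S phase, was at 95.5 against 0.69 CPM in Schwann-like cells (7.11, 6.22 to 8.15), 117 against 2.38 in endothelial-like cells (5.63) and 124 against 1.03 in fibroblast-like cells (6.92). Tk1, thymidine kinase, was at 6.82, 7.27 and 8.71 on the log2 scale. Mthfd1, a folate enzyme used by resting cells too, was near equal in Schwann-like cells (-0.16, -0.89 to 0.50).

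Of the histone genes with a ratio, 22 of 23 were called higher in Schwann-like, 21 of 25 in endothelial-like and 20 of 22 in fibroblast-like cells, with medians of 4.27, 3.39 and 3.98. Hist1h3c reached 9.52 in Schwann-like and 10.31 in endothelial-like cells, Hist1h1b 10.75 in fibroblast-like cells, and Hist1h2af 10.05 in Schwann-like cells. Hist1h2bc differed little in Schwann-like cells (0.51, 0.31 to 0.71). Values of single histone genes are uncertain, because the genes are near copies that can share reads and because most replication histone transcripts lack the poly(A) tail that 3′ capture uses.

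Mitosis genes were called higher in nearly all members. Of the mitotic kinases and checkpoint genes, 24 of 24 were called higher in Schwann-like cells (median 5.76), 23 of 24 in endothelial-like cells (5.59) and 21 of 22 in fibroblast-like cells (5.56). Kinetochore genes were called in 24 of 24, 24 of 24 and 22 of 22 (medians 5.17, 5.34 and 6.31), and kinesins, spindle and cytokinesis genes in 31 of 31, 31 of 31 and 25 of 25 (5.99, 5.91 and 5.29). None of the rule genes is on these lists, but the rule still created the contrast. Pbk, a mitotic kinase, had 266 UMIs in 52 cycling Schwann-like cells and 3 in 1585 others (10.10, 8.53 to 12.38). Hmmr, a spindle-assembly protein, had 239 against 4 (9.53, 8.15 to 11.41). Aurkb, the Aurora kinase of the chromosomal passenger complex, had 127 against 3 (9.03), and Plk1, which triggers mitotic entry, 77 against 5 (7.57). Pttg1 (securin) had the lowest ratio of its list in each lineage (1.22, 0.75 and 0.53), and Ckap5 of the spindle list (1.07, 1.38 and 1.02).

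Condensin and cohesin genes lay lower, with 15, 14 and 16 of 18 called higher and medians of 2.62, 2.37 and 3.09. Ncapg and Ncaph of condensin I were at 5.56 and 5.70 in Schwann-like cells, whereas the cohesin Smc1a was at 0.61. DNA methylation and repair genes were called higher in 18 of 20, 17 of 20 and 15 of 16. Pclaf, the clamp-associated factor, led that list in all 3 (7.55, 7.73 and 9.97). Uhrf1, which brings Dnmt1 to replicated DNA, was at 5.64 in Schwann-like cells.

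**Figure D3:**
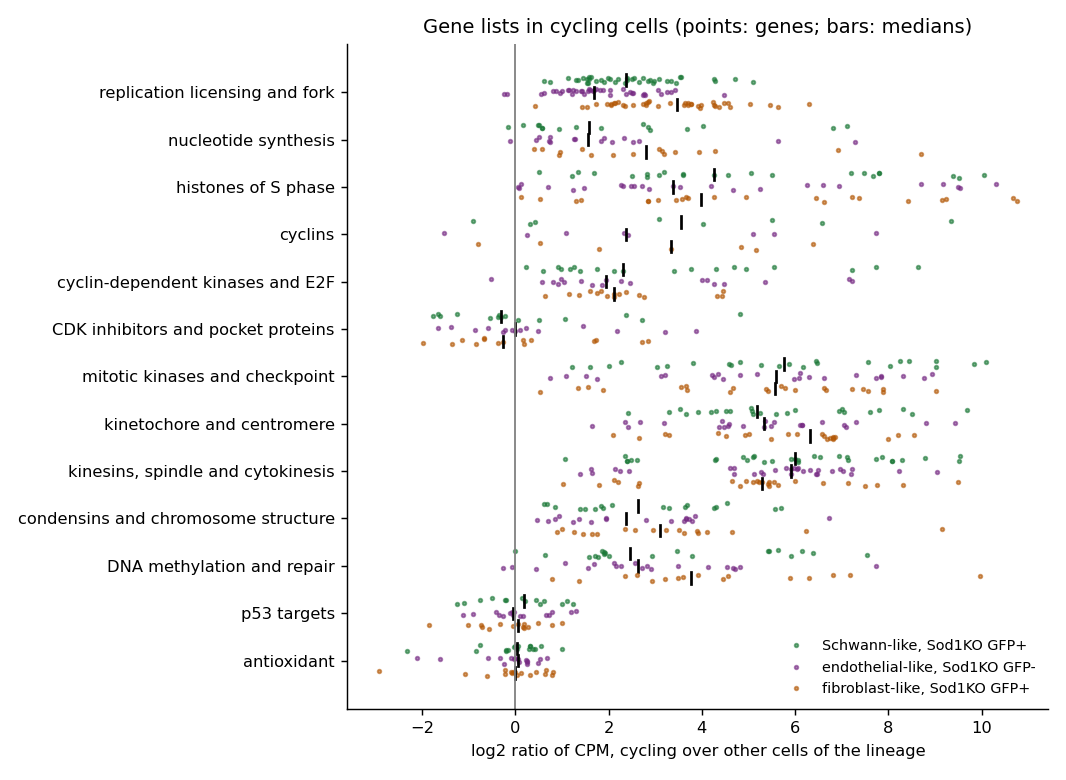
The log2 ratio of CPM, cycling over other cells of the lineage (horizontal axis), of each gene (points) of 13 lists (vertical axis) in the 3 lineages with at least 20 cycling cells in 1 library; black bars are medians. Mitosis lists sit farthest right (medians from 5.17 to 6.31), and CDK inhibitors, p53 targets and antioxidant genes straddle 0.

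The genes of largest ratio were mostly histones and genes of G2 and mitosis. In Schwann-like cells the 10 highest were Pimreg (117 UMIs against 1, log2 10.50), Depdc1a, Pbk, Hist1h2af, Bub1, Ska1, Mxd3, Hmmr, Hist1h3c and Iqgap3, all between 9.51 and 10.50. In WT GFP+ Pbk had 51 UMIs in the 7 cycling Schwann-like cells and 1 in the others, Hmmr 49 and 0, and Bub1 10 and 3. In endothelial-like cells the 10 highest were Hist1h3c, Hist1h1b, Esco2, Hist1h2af, Nuf2, Pimreg, Hist1h3b, Hmmr, Bub1 and Ska1, between 8.81 and 10.31. Bub1 is a checkpoint kinase, Ska1 and Nuf2 join kinetochores to microtubules, and Esco2 acetylates cohesin. Intervals at the top are wide, as for Bub1 in Schwann-like cells (74 UMIs against 1, 7.31 to 15.16).

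Ccnb1, the mitotic cyclin, had 158 UMIs in cycling and 3 in other Schwann-like cells of Sod1KO GFP+ (9.34, 7.77 to 11.64), and ratios of 7.74 in endothelial-like and 6.39 in fibroblast-like cells. The G1/S cyclins Ccne1 and Ccne2 were higher by 3.09 and 4.03 in Schwann-like, 2.41 and 2.32 in endothelial-like and 3.33 and 4.85 in fibroblast-like cells. The D cyclins, which couple growth signals to the cycle, were uneven. Ccnd1 was at 573 against 458 CPM in Schwann-like (0.32, 0.21 to 0.43), 384 against 181 in endothelial-like (1.08) and 347 against 99.4 in fibroblast-like cells (1.80), but at 71.4 against 144 CPM in the 7 WT GFP- endothelial-like cells (-1.01, -1.75 to -0.36). Among low-myelin Schwann-like cells alone (summed myelin genes under 5000 CPM, a limit set after the cells were seen) Ccnd1 turned direction, at 589 against 677 CPM (-0.20, -0.31 to -0.09). Ccnd2 was lower in all of these comparisons, at -0.90, -1.53 and -0.80 in the 3 Sod1KO lineages and -1.43 and -1.12 in WT GFP+ Schwann-like and WT GFP- endothelial-like cells. Ccnd2 was thus the 1 cyclin of the list with a lower level in cycling cells of all 3 Sod1KO lineages.

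CDK inhibitors and pocket proteins had no common direction, with 4 of 15 genes called higher in each lineage and 4, 2 and 3 called lower. Cdkn1c (p57), a Cip/Kip inhibitor, was lower in all 3 lineages: 53.6 against 181 CPM in Schwann-like (-1.76, -2.13 to -1.41), 99.6 against 261 in endothelial-like (-1.39) and 63.8 against 163 in fibroblast-like cells (-1.35). In WT it was at -1.25 in Schwann-like and -2.74 in endothelial-like cells. Cdkn1b (p27) was lower in Schwann-like cells (77.7 against 237 CPM, -1.61), but among low-myelin Schwann-like cells alone it was at -0.07 (-0.39 to 0.24) and Cdkn1c at -0.61. Cdkn1b was near equal in endothelial-like cells (-0.01, -0.22 to 0.20). The INK4 gene Cdkn2c (p18) was higher, by 2.37, 3.20 and 2.71, and so was the pocket protein gene Rbl1, at 2.71 in Schwann-like and 2.85 in fibroblast-like cells. Cdkn2a, the INK4a/ARF locus, was at 49.7 against 1.76 CPM in Schwann-like (4.82, 4.16 to 5.51) and 4.78 against 0.33 in endothelial-like cells (3.88). In the 7 WT GFP+ Schwann-like cells Cdkn2a had 17 UMIs, against 8 in the 1526 other cells. The 3′ reads do not separate the INK4a and ARF transcripts.

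Cdkn1a (p21), a p53 target, gave opposite readings with the comparison group. Against all other Schwann-like cells of Sod1KO GFP+ it was lower (194 against 459 CPM, -1.24, -1.43 to -1.06). Against only those other Schwann-like cells with under 5000 CPM of myelin RNA, as most cycling cells had, it was higher, at 183 against 70.6 CPM (1.37, 1.15 to 1.59). In fibroblast-like cells it was near equal (0.18, -0.10 to 0.44) and in endothelial-like cells slightly lower (-0.26). Of 16 p53 targets, 14, 16 and 15 had a ratio in Schwann-like, endothelial-like and fibroblast-like cells, with medians of 0.18, -0.04 and 0.07, with 3, 2 and 0 called higher and 2, 1 and 2 called lower.

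Antioxidant genes, of interest because Sod1 itself is one, differed little between cycling and other cells. Of 17 genes, 1, 0 and 0 were called higher and 1, 2 and 2 lower, with medians of 0.03 in Schwann-like and 0.05 in endothelial-like cells. Txn1, thioredoxin, was at 451 against 224 CPM in Schwann-like (1.01, 0.88 to 1.14), 563 against 354 in endothelial-like (0.67) and 1071 against 609 in fibroblast-like cells (0.82). Hmox1, haem oxygenase, was lower in Schwann-like (3 UMIs, -2.32, -4.61 to -0.75) and fibroblast-like cells (4 UMIs, -2.92, -4.80 to -1.56). Sod2, the mitochondrial dismutase, was at 92.4 against 106 CPM in Schwann-like cells (-0.20, -0.48 to 0.07).

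Each cycling cell could be placed by its replication and mitosis RNA. The 56 replication and nucleotide genes and the 79 genes of the mitosis lists were each summed per cell and set against the 95th percentile of other cells of the lineage and library. Of 52 cycling Schwann-like cells of Sod1KO GFP+, 35 were above on both sums, 15 on mitosis alone, 0 on replication alone and 2 on neither. The counts were 56, 26, 0 and 5 of 87 in endothelial-like cells of Sod1KO GFP- and 19, 4, 0 and 0 of 23 in fibroblast-like cells of Sod1KO GFP+. No cell in these lineages was above on replication alone; the rule genes are mainly genes of G2 and mitosis, so this is a description of the selection. The share above on replication was 67.3% (52.9 to 79.7) in Schwann-like, 64.4% (53.4 to 74.4) in endothelial-like and 82.6% (lower bound 61.2) in fibroblast-like cells, with overlapping intervals.

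In the smaller groups both sums were high in 5 of 7 WT GFP+ Schwann-like, 5 of 7 WT GFP- endothelial-like, 12 of 14 Sod1KO GFP- fibroblast-like and 5 of 5 WT GFP+ macrophage-like cells. Tenocyte-like cells had 3 of 7 in WT and 8 of 9 in Sod1KO GFP+, and macrophage-like cells of Sod1KO GFP+ 7 of 11. Median mitosis sums were 13095 CPM in Schwann-like cells of Sod1KO GFP+ (other cells 1529) and 10859 in endothelial-like cells of Sod1KO GFP- (other cells 1282). The WT GFP+ tenocyte-like cells had the lowest median, at 2962 CPM.

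**Figure D4:**
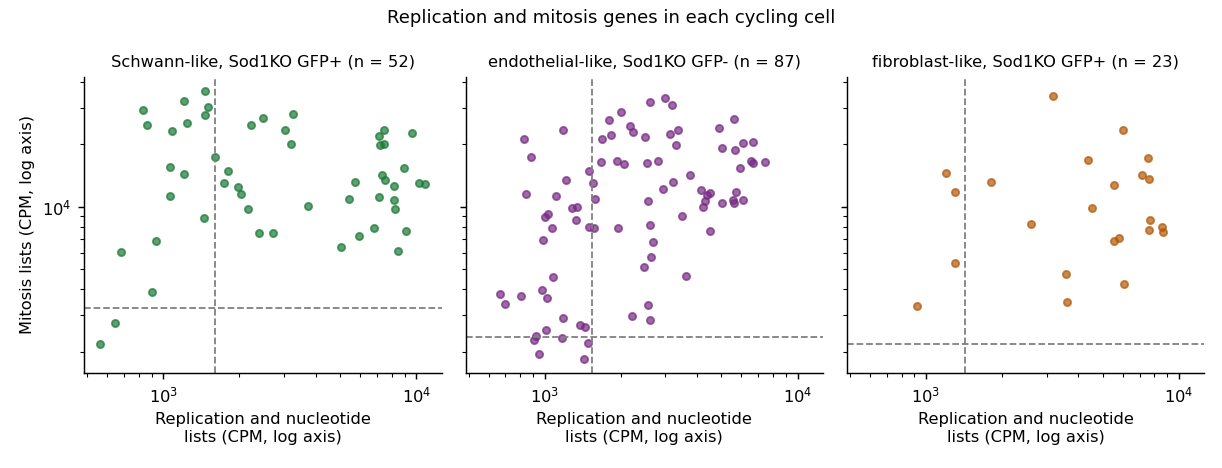
Each cycling cell of 3 lineages (panels; n = 52, 87 and 23) by its summed replication and nucleotide genes (horizontal log axis, CPM) and summed mitosis genes (vertical log axis, CPM); dashed lines are the 95th percentile of other cells of the lineage and library. Cells fill the upper right and upper left fields (35 and 15 in Schwann-like cells), and the lower right field is empty.

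Schwann-like cycling cells were nearly all low in myelin RNA. Summed over 12 myelin genes, the 52 cycling cells of Sod1KO GFP+ ran from 0 to 22816 CPM with a median of 1316, and the 1585 other cells had a median of 5973 and an upper quartile of 39168. Other cells fell into a low and a high group, split here at 5000 CPM, a value set after the cells were seen. Of the cycling cells 50 of 52 (96.2%, 86.8 to 99.5) were below it, against 763 of 1585 others (48.1%, 45.7 to 50.6). In WT GFP+, 5 of 7 cycling cells (71.4%, 29.0 to 96.3) and 351 of 1526 others (23.0%) were below.

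Seen from the other side, the share of cycling cells was 6.15% (50 of 813) among low-myelin and 0.243% (2 of 824) among high-myelin Schwann-like cells of Sod1KO GFP+. It was 1.40% (5 of 356) and 0.170% (2 of 1177) in WT GFP+. Low-myelin cells made up more of the Schwann-like cells in Sod1KO GFP+. Among low-myelin cells the intervals of the share were 4.60 to 8.03 for Sod1KO and 0.458 to 3.25 for WT, the latter from 5 cells, and the difference was not tested.

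**Figure D5:**
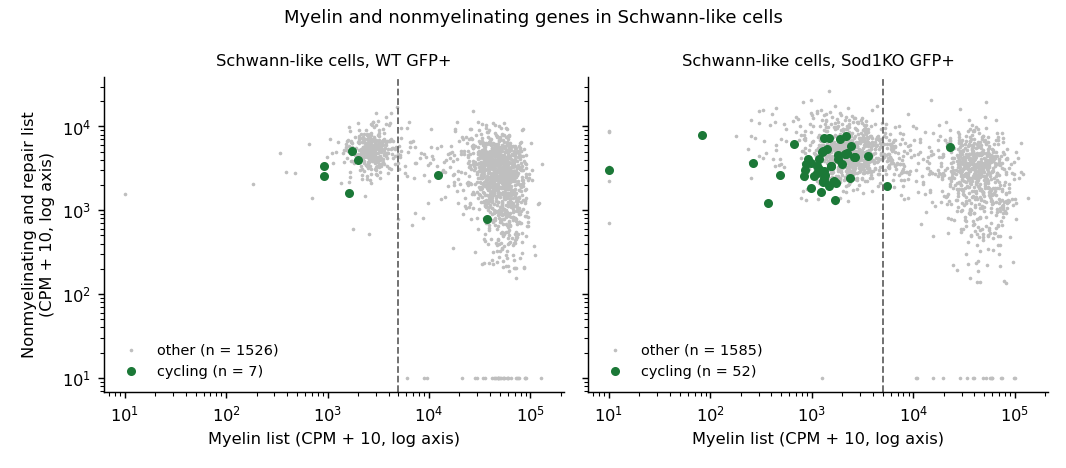
Schwann-like cells of WT GFP+ (left) and Sod1KO GFP+ (right) by their summed myelin genes (horizontal log axis, CPM plus 10) and summed nonmyelinating and repair genes (vertical log axis, CPM plus 10); green points are cycling cells, grey points other cells, and the dashed line is 5000 CPM. In Sod1KO GFP+ 50 of 52 cycling cells lie left of the line.

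Genes of compact myelin were lowest. Of 12 myelin genes 11 were called lower and none higher in cycling Schwann-like cells of Sod1KO GFP+, with a median of -3.56. Mbp, myelin basic protein, was at 172 against 1618 CPM (-3.24, -3.43 to -3.05). Drp2, which links the sheath to the basal lamina with periaxin, had 2 UMIs against 4129 (-7.39, -10.43 to -5.53), and Egr2, the transcription factor of myelination, 20 against 1712 (-2.79). In WT GFP+ the direction was the same for Mbp (1062 against 3247 CPM, -1.61).

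The 10 lowest genes of all were Mt3, Drp2, Frmd3, Ogn, Slc36a2, Kcnk1, Col24a1, Sptbn5, Otop1 and Slc7a2, with 1 to 3 UMIs each in cycling cells and 581 to 4129 in others. Against low-myelin cells alone the differences were smaller. For Mbp and Drp2 the cut itself favours this, since both groups were limited on a sum that includes them. Of the myelin list, Mag (1.33), Ncmap (0.67), Pllp (0.41) and Prx (0.14) were then above 0, with intervals that include 0. The other myelin genes were below 0. Mbp was then at 116 against 172 CPM (-0.57) and Drp2 at 1 against 28 UMIs (-1.89, -7.24 to 0.71). Mt3 was at -1.33 (-6.71 to 1.32) and Kcnk1 at -0.08 (-5.55 to 2.82), both with 1 UMI in cycling cells.

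Against all other Schwann-like cells, lineage and nonmyelinating genes differed less than myelin genes. Sox10, the lineage factor, was at 279 against 333 CPM (-0.26) and Sox2, a factor of immature and repair cells, at 73.8 against 74.7 (-0.02, -0.33 to 0.29). Ngfr, the low-affinity neurotrophin receptor, was at 52.8 against 59.6 CPM (-0.17) and Gap43 at 118 against 89.8 (0.39, 0.14 to 0.64). Jun, the repair factor, was lower at 1547 against 2351 CPM (-0.60), and Ncam1 higher at 562 against 374 (0.59). Among low-myelin cells alone Gap43 was at -0.17 (-0.43 to 0.07), Ncam1 at 0.04 (-0.08 to 0.15), Jun at -0.52 and Ngfr at -0.62. The lowest of the nonmyelinating and repair list there were Olig1 (6 UMIs, -3.15) and Runx2 (-1.14, -1.35 to -0.93), and the highest was Cdkn2a (4.31). Of 17 nonmyelinating and repair genes with a ratio 2 were called higher, Cdkn2a among them, and 1 lower, Olig1 (6 UMIs, -2.52). Receptors for Schwann cell mitogens did not stand apart, with 1 of 12 called higher. Erbb3, the neuregulin receptor, was at 294 against 296 CPM (-0.01, -0.16 to 0.14), and among low-myelin cells alone at -0.28 (-0.44 to -0.13). Pdgfrb, the 1 called, rested on 10 UMIs (1.11, -0.02 to 2.10).

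Markers of other cells were checked in the same 52 cells. Endothelial markers were higher in 10 of 10 genes with a ratio (median 2.10), and 82.9% of their 275 UMIs came from 3 of the 52 cells. Robo4 was at 0. The median cell had 31.4 CPM of the list, against 0 in other Schwann-like cells. Fibroblast markers were lower (7 of 11 called, median -1.20, with Pdgfra and Clec3b at 0), and macrophage markers totalled 39 UMIs, with Adgre1, Mrc1, Fcgr1, Tyrobp and Fcer1g at 0. The part of these markers in the other ratios was not tested.

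Endothelial-like cycling cells of Sod1KO GFP- had less of the arterial and venous genes. The subtype lists were added after the cells were seen. Arterial genes were called lower in 5 of 7 (median -1.23), with Bmx at 4 UMIs against 576 (-3.40), Sema3g at 18.1 against 66.0 CPM (-1.87), Hey1, a Notch target, at -1.59 and the connexin gene Gja4 at -1.13. Venous genes were called lower in 4 of 7 (median -1.59), with the adhesion receptor Selp at 2.73 against 47.1 CPM (-4.11, -5.32 to -3.13), Ackr1 at 4 UMIs against 501 (-3.20), Lrg1 at -1.96 and Vwf at 42.3 against 127 CPM (-1.59). Lymphatic genes were called lower in 3 of 6. No capillary gene of 7 was called in either direction, with Gpihbp1 at 1188 against 1179 CPM (0.01), Car4 at -0.40 and Aplnr, the apelin receptor, at 0.22.

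Tip-cell genes, which mark sprouting endothelium, were split. Called higher were 3 of 8. Apln, the apelin ligand, was at 129 against 20.3 CPM (2.67, 2.49 to 2.84), Pgf, placental growth factor, at 58.7 against 14.7 (2.00) and Nid2, a basement membrane nidogen, at 103 against 38.2 (1.43). Angpt2 was at 0.82 and Cxcr4 at 0.67, both under 2-fold, whereas Esm1 was lower (7.16 against 17.4 CPM, -1.28, -1.98 to -0.65). Apln was higher in the smaller groups as well, at 120 against 26.7 CPM in the 7 WT GFP- cells (2.17, 1.60 to 2.69) and 79.0 against 22.4 in the 10 Sod1KO GFP+ cells (1.82, 1.11 to 2.47). Pgf was higher in WT GFP- (0.99, 0.10 to 1.75) but not in Sod1KO GFP+ (-0.47, -1.80 to 0.59).

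Of 12 general endothelial markers 2 were called lower and none higher (median -0.14). Pecam1 was at 1139 against 963 CPM (0.24), Cdh5 (VE-cadherin) at 1133 against 1157 (-0.03) and Kdr, the main VEGF receptor, at 584 against 686 (-0.23). Kit was higher (182 UMIs against 681, 1.87) and Cd34 at 566 against 340 (0.74). The 10 lowest genes included Nebl, F5, Pcsk1, Ptpn3, Fst, Ism1, Gm43126, Selp and Mctp1, between -6.35 and -4.08. Of these only Selp and Mctp1 had more than 1 UMI in cycling cells. Erythroid markers were uneven across the 87 cells, as 94.4% of their 4242 UMIs came from 3 cells. Mural markers had 8239 UMIs, with a median of 1495 CPM per cell against 1176 in other cells. Summed over cells they were lower, at 2811 against 4263 CPM. Fibroblast markers had 782 UMIs, and of the 12 only Pdgfra was at 0. Schwann markers had 418 UMIs, with 8 of 12 at 0, Sox10 among them. The part of these lists in the other ratios was not tested.

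Fibroblast-like cycling cells of Sod1KO GFP+ had less of the genes of resting stroma. Called lower were 8 of 12, with a median of -1.65 and none higher. Inmt, a methyltransferase, had 0 UMIs against 2766 in other cells, a log2 ratio of at most -5.29 with a floor of 3 UMIs. Myoc was at 89.7 against 698 CPM (-2.96), Gdf10 at 34.5 against 266 (-2.95), Fst (follistatin) at -3.11 and Cxcl14 at 454 against 1570 (-1.79). Pi16, of adventitial fibroblasts, was at 200 against 508 CPM (-1.34), and Pdgfra, the lineage receptor, at 159 against 395 (-1.31). In the 14 Sod1KO GFP- cells Inmt (-5.41) and Myoc (-3.34) had the same direction, but Pi16 was the opposite (1005 against 718 CPM, 0.49).

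Activation genes were mixed, with 4 of 12 called higher and 1 lower. Tnc, tenascin C, was at 295 against 54.9 CPM (2.43, 2.18 to 2.67), Ccl2, a monocyte chemokine, at 524 against 138 (1.93), Cthrc1 at 141 against 60.6 (1.22) and Col12a1 at 459 against 212 (1.11). Acta2, smooth muscle actin, was lower (29.3 against 104, -1.82). In the 14 Sod1KO GFP- cells Cthrc1 (1.07) and Acta2 (-3.65) had the same direction, and Tnc was near equal (0.18, -0.71 to 0.94). Hmga2, a chromatin protein of fetal and growing cells, had 33 UMIs against 16 in GFP+ cells (5.60, 4.70 to 6.56) and 0 against 4 in GFP- cells.

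Among the 23 cells, Schwann markers were called higher in 5 of 11 genes with a ratio and mural markers lower in 7 of 9. Of 376 Schwann-marker UMIs, 76.3% came from 3 cells. Tenocyte markers were called higher in 2 of 8 genes and lower in 1, with a median of 0.65, and 88.8% of their 554 UMIs came from 3 cells. Perineurial markers were called higher in 3 of 6, with a median of 0.55. Sox10 was at 43.1 against 18.6 CPM, whereas in the GFP- cells Sox10 was at 0 UMIs. The part of these cells in the GFP+ ratios was not tested.

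Sod1KO over WT within cycling cells was not computed, since no WT lineage had 20 cycling cells. The WT values above are given beside the Sod1KO values for their direction alone.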

How the data were processed

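Muscle cells sorted as GFP+ or GFP- from WT and Sod1KO mice carrying S100GFP were profiled in 4 droplet 3′ libraries, 1 per group. The authors deposited UMI counts per gene and barcode (32285 genes). The submitters' processing notes name Cell Ranger 7.1.0, Seurat 4.30 and mm10. The paper's methods name other versions of the aligner and a second build, so the build of the counts is uncertain, and no coordinate was taken from them. The study's later steps (ambient RNA, doublet and batch correction) are not in these counts, so ambient RNA and doublets remain.

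Kept barcodes had over 200 detected genes and a mitochondrial UMI share under 10%. Cycling cells had at least 4 of 8 rule genes. Lineages came from the highest of 16 marker scores, and a cell was mixed when the next score reached 80% of the highest, a value set after the cells were seen. Members and lists were chosen with earlier results of these data known. Cycling and other cells were compared on summed UMIs as CPM in comparisons with at least 20 cycling cells, and a 2-fold difference was called. Genes with 0 UMIs in 1 group entered with a floor of 3 UMIs, so genes with 1 UMI can rank beyond them. Named were the rule genes, per list the highest and lowest ratio with at least 20 UMIs and members that differed in sign between libraries, and in lineages with at least 50 cycling cells the 10 highest and 10 lowest genes with at least 50 UMIs (mitochondrial, haemoglobin and Gm42418 excepted). Some genes that this rule or the lists name are not reported here. Other genes are examples from the lists chosen after their values were seen.

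Shares have Clopper-Pearson intervals, differences Newcombe intervals, and ratios intervals from the conditional binomial, all at 95%. Cells were thinned to 2000 or 5000 UMIs. Doublets were scored against simulated doublets (50 neighbours, 30 principal components, 2000 variable genes, 0.8% per 1000 barcodes). Total depth was 21959700 to 105954000 UMIs per library. Scripts were tested on simulated data and run in Python 3.11.15, with scikit-learn 1.9.0 for the doublet score, scipy 1.17.1 for intervals, numpy 2.4.6, matplotlib 3.10.9 and pandas 2.3.3. The alternatives were other rule thresholds, other mitosis genes, thinning, a stricter cell filter, doublet removal, other lineage assignment, other scaling and means over cells.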

Additional observations from a re-analysis of the deposited data

Results flagged for a closer look

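The share of cycling cells among tenocyte-like cells was lower in the Sod1KO than in the WT GFP+ library, by -0.451 percentage points (-1.63 to 0.344), whereas among Schwann-like cells it was higher by 2.72 points (1.83 to 3.71). The difference between the lineages was not tested, and the tenocyte-like values rest on 9 and 7 cells, of which 6 and 4 were scored as doublets. At equal depth the tenocyte-like difference was -0.0310 points (-0.876 to 0.469) at 2000 UMIs and -0.0397 points (-0.983 to 0.560) at 5000.

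Barcodes that the cell filter removed also held cells with 4 or more rule genes. They were 6 of 976 removed barcodes in Sod1KO GFP+ (0.615%) and 5 of 1168 in Sod1KO GFP- (0.428%), against 1 of 731 (0.137%) in WT GFP+ and 1 of 387 (0.258%) in WT GFP-.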

How the results depend on the processing

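Of 133 values recomputed for results that answer a comparison, 127 stayed within the interval or 1.5 times of the reported value and 6 moved. Without cells scored as doublets the log2 ratio of Schwann-like shares was 4.51, and with each cell given the lineage of most detected markers 81.5% of cycling Sod1KO GFP- cells were endothelial-like. The summed rule genes over all cells gave log2 ratios of 1.65 (GFP+) and 1.502 (GFP-) as means of per-cell CPM, and 1.03 and 0.74 with over 500 genes and under 5% mitochondrial UMIs; the cause was not tested. Across alternatives the log2 ratio of all shares ran from 1.66 to 2.41 in GFP+ and from 1.27 to 2.19 in GFP-, and that of macrophage-like cells went from 0.48 to -0.13 when thinned to 2000 UMIs. Of 1246 values for single genes, lists and library shares, 73 moved and 1 changed sign. A change of sign was counted only where the reported interval excluded 0 or the list median was at least 1 in size. The value counted was that of Apod in Schwann-like cells, which went from -0.24 to 0.26 as a mean of per-cell CPM. The mixed limit of 60% and the removal of shared barcodes were added after seeing the data. Fibroblast-like gene levels without doublets were not run, as 19 cycling cells were left. No paired analysis was possible because each group had 1 library. With 1 library per group, counting intervals do not cover variation between mice, pools or sorts, and 27 and 8 WT cycling cells limit every ratio to WT.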
